A study of Mus musculus with 12 samples.

Results

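Nop56, Nop58, Dkc1, Npm1 and Ebna1bp2, 5 genes whose proteins work in the nucleolus on the assembly of ribosomes, were followed while mouse embryonic stem (ES) cells differentiated at random. They were found on the array by exact gene symbol. Each had 1 probe, so they account for 5 of 10043 probes with a single symbol and for 5 of 9212 genes. The ES cells were undifferentiated R1 cells, an established mouse line, kept on gelatin with leukemia inhibitory factor. Embryoid bodies (EB), clumps of ES cells that form many cell types without an added inducer, had been dissociated and plated with fetal bovine serum for 4, 8, 15 or 21 days. Each of 12 arrays compared ES RNA with EB RNA of 1 day, and each day had 3 arrays. ES and EB samples differed in culture medium and in leukemia inhibitory factor as well as in time, and these cannot be told apart in a ratio against ES. Whether a day's 3 arrays hold separate cultures is not labelled. The p-values therefore reflect the scatter of these arrays alone, which may be technical. Arrays of 1 day correlated weakly over all features at day 4 (Pearson's r 0.00594 to 0.202) and more closely at day 21 (0.559 to 0.773).

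Every value below is a normalized log ratio as deposited, read as log2, with a positive sign read as higher in EB. That orientation is the likely one but is open to doubt. The labelling protocols put Cy5, by convention the numerator, on EB RNA, whereas the titles name ES first and the dye fields assign Cy5 the other way round. With the sign as deposited, the ES cell gene Zfp42 stood at -2.54 at day 21, and Afp, a serum protein of yolk sac and fetal liver, at 3.60. With the opposite orientation each higher would read lower and each lower higher, while no p-value or total of called genes moves. A ratio compares EB with ES for 1 probe and gives no level, so the genes cannot be ranked by abundance. In these bulk samples, fewer cells of a type and less RNA per cell cannot be told apart.

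Ribosome production starts in the nucleolus, where RNA polymerase I copies the ribosomal genes and small nucleolar ribonucleoproteins (snoRNPs) modify and help to cut the transcript. Box C/D snoRNPs guide methylation of the ribose and carry Nop56 and Nop58, a pair of related scaffold proteins, beside the methylase fibrillarin (Fbl) and Snu13. Box H/ACA snoRNPs convert uridine to pseudouridine through Dkc1 (dyskerin), which also stabilises the RNA of telomerase. Npm1 (nucleophosmin) is an abundant chaperone of nucleolar proteins and histones, and Ebna1bp2 is the mouse counterpart of yeast Ebp2, which is needed to build the large subunit. Fast-growing cells such as ES cells depend on this pathway.

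The promoter windows of 3 of these genes are shown because the genes followed a like course and these windows hold a searched motif. They come from RefSeq's table for GRCm38.p6, run from 250 bases before to 50 bases after the annotated start, and are on the plus strand. The table held 4 of the 5 genes, Nop56, Nop58, Dkc1 and Ebna1bp2. Capitals mark GGGCGG or its complement CCGCCC, the core of sites for Sp1-type factors, and CCGGAAG, the core of sites for Ets-type factors. The windows are chr2:130274162-130274461 for Nop56, chr1:59684756-59685055 for Nop58 and chr4:118620549-118620848 for Ebna1bp2.
Nop56 promoter: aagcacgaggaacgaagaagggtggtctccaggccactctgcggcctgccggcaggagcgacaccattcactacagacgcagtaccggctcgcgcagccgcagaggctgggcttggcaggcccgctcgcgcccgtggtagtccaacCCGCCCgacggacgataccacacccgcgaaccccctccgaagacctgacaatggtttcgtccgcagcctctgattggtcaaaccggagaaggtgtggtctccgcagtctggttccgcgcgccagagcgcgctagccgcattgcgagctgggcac
Nop58 promoter: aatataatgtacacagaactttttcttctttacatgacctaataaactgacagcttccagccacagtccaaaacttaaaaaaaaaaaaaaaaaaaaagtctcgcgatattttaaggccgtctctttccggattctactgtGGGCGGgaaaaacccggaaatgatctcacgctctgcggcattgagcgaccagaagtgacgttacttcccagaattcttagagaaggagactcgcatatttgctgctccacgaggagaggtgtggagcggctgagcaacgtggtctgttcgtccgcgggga
Ebna1bp2 promoter: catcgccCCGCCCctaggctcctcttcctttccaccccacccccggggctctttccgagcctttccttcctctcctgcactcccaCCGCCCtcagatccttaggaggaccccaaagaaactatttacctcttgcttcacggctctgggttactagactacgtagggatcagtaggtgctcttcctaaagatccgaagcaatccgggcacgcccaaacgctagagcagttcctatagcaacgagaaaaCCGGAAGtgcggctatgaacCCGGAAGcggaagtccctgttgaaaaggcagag
GGGCGG was found in 3 of the 4 windows on either strand, against 35.7% of 32851 promoters in the table. In Nop56 it began 104 bases before the start and in Nop58 110 bases before it, on opposite strands. CCGGAAG, chosen after the sequences were seen, occurred in Ebna1bp2 alone of the 4, at 2 places around the start, and in 8.86% of all promoters. CACGTG, the E-box bound by Myc with Max, was in 0 of the 4 windows and in 7.15% of all promoters. CACGCG was in 0 of the 4 as well (9.27% of all), and so was a longer palindrome that was also searched (0.466% of all). A match describes the letters of the window, and its part in the ratios was not tested.

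By day 21 all 5 genes were lower in EB than in ES cells, by 1.59-fold to 1.92-fold, and all 5 were lower than at day 4. Their mean ratios were lower at each later day, an order that held for 5 of 5 genes and for 8.93% of the 10689 features tested. For Npm1 it rests on a first step of -0.08, which turned to 0.153 in the larger of the array sets described below, to 0.0506 without day 4 array 1 and to 0.0301 without day 8 array 3. For Dkc1 the step from day 8 to 15 shrank to as little as -0.000217 with an array left out. In the smaller array set its mean rose in that step, from -0.503 to -0.44. At day 4, 2 of the 5 (Nop56 and Nop58) were above 0 on all 3 arrays, against 14.8% of features, and 0 were below 0 on all 3, against 15.4%. At day 8, 1 of 5 (Nop56) was below 0 on all 3 arrays, against 21.9% of features, and 0 above, against 22.2%. At days 15 and 21 all 5 were below 0 on every array of the day, against 23.3% and 26.6% of features, and 0 above, against 24.4% and 27.8%.

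Nop56 showed the tightest series. Its ratio was 0.33, 0.33 and 0.29 on the day 4 arrays and -0.07, -0.19 and -0.33 at day 8. It was -0.17, -0.36 and -0.49 at day 15 and -0.73, -0.67 and -0.61 at day 21. The day 21 arrays lay below all arrays of every earlier day, and the day 4 arrays above all later ones. Against ES the mean was 0.32 ± 0.02 (SD, n = 3) at day 4 (limma's moderated test, adjusted p = 0.206) and -0.19 ± 0.13 at day 8 (adjusted p = 0.201). It was lower by 1.27-fold at day 15 (-0.34 ± 0.16, adjusted p = 0.0166) and by 1.59-fold at day 21 (-0.67 ± 0.06, adjusted p = 1.67e-04). The difference of log2 ratios between day 21 and day 4 was -0.99 (95% interval -1.23 to -0.748, adjusted p = 6.50e-04), larger than the spread between arrays.

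Nop58, its partner in the box C/D particle, followed the same course with more spread early on. The day 4 arrays read 0.48, 0.14 and 0.05, and the day 8 arrays 0.17, -0.25 and -0.20, so these days overlapped. The day 15 arrays read -0.29, -0.31 and -0.23 and the day 21 arrays -0.76, -0.62 and -0.62. Day 21 lay below all other arrays. At day 15 the mean was -0.27 ± 0.04 (adjusted p = 0.0938), and at day 21 it was lower by 1.59-fold (-0.67 ± 0.08, adjusted p = 7.99e-04). Day 21 less day 4 was -0.89 (95% interval -1.19 to -0.589, adjusted p = 0.0038).

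Dkc1, the pseudouridine synthase of box H/ACA particles, had the lowest day 21 mean of the 5 and the widest spread. It read 0.27, 0.38 and -0.08 at day 4, and 0.12, -0.39 and -0.62 at day 8. At day 15 its arrays stood close together, at -0.61, -0.46 and -0.44. At day 21 they stood far apart, at -1.43, -0.92 and -0.46, and array 3 lay within the day 15 range. Its mean at day 15 was -0.50 ± 0.09 (adjusted p = 0.0727), and at day 21 it was 1.92-fold lower than ES (-0.94 ± 0.49, adjusted p = 0.00249). Without day 21 array 1 its mean was -0.691 (adjusted p = 0.0338). Day 21 less day 4 was -1.13 (95% interval -1.64 to -0.618, adjusted p = 0.0156), a call lost without day 4 array 1 (adjusted p = 0.0644), day 21 array 1 (0.0673) or day 21 array 2 (0.0561).

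Npm1, the nucleolar chaperone, had a day 4 mean of -0.09 ± 0.30 (limma, adjusted p = 0.875, 95% interval -0.363 to 0.181). Its sign turned with array weights (0.0443) and without day 4 array 2 (0.0699). Its arrays read 0.17, -0.41 and -0.03 at day 4 and 0.03, -0.15 and -0.39 at day 8. They read -0.32, -0.39 and -0.83 at day 15 and -0.68, -0.70 and -0.91 at day 21. Day 21 lay below every day 4 and day 8 array and overlapped day 15. Npm1 was lower at day 15 by 1.43-fold (-0.52 ± 0.28, adjusted p = 0.0216) and at day 21 by 1.70-fold (-0.76 ± 0.125, adjusted p = 0.00157). Day 21 less day 4 was -0.67 (95% interval -1.06 to -0.287, adjusted p = 0.0449), the smallest of the 5, and this call was lost without day 4 array 1 (adjusted p = 0.174) or array 3 (0.106), without any 1 of the day 21 arrays (0.108, 0.107 and 0.106), and without day 8 array 2 (0.0682), day 15 array 1 (0.0523) or day 15 array 2 (0.0601). It was also lost under quantile normalization (adjusted p = 0.099), scaling of the arrays (0.16), a limma fit of those days alone (0.0686) and in the larger of the array sets described below (0.13). Npm1 has processed pseudogenes, and the part of cross-hybridisation in its ratio was not tested.

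Ebna1bp2, the large subunit assembly factor, stood between -1.12 and -0.76 at day 21, after values on both sides of 0 at day 4. Its arrays read 0.36, -0.26 and 0.31 at day 4 and 0.01, -0.10 and -0.44 at day 8. They read -0.29, -0.29 and -0.51 at day 15 and -0.86, -0.76 and -1.12 at day 21. The day 21 arrays lay below all earlier ones. Its mean at day 15 was -0.36 ± 0.13 (adjusted p = 0.0847), and at day 21 it was 1.88-fold lower (-0.91 ± 0.19, adjusted p = 4.66e-04). Day 21 less day 4 was -1.05 (95% interval -1.43 to -0.665, adjusted p = 0.00586).

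**Figure D1:**
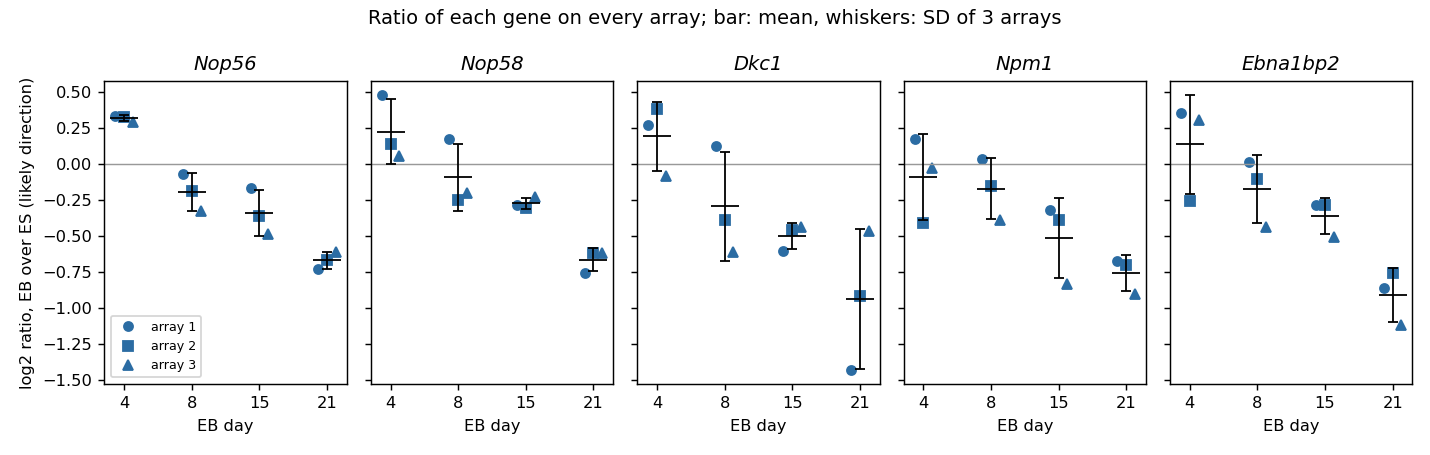
Log2 ratio of EB over ES (vertical axis) at each EB day (horizontal axis) for the 5 genes, with a circle, square or triangle for arrays 1, 2 and 3, a bar at the mean and whiskers of 1 SD over 3 arrays. All 15 values of day 15 and all 15 of day 21 lie below 0, and Dkc1 is the most spread at day 21, from -1.43 to -0.46.

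Set against all features, 0 of the 5 genes passed limma's test at day 4, where 0% of features did, and 2 had an unadjusted p under 0.05, against 10.1% of features. At day 8 again 0 of 5 passed, against 2.28% of all features called (1.06% lower and 1.23% higher). At an unadjusted p under 0.05 there was 1 of 5, near the 19.2% of features. At day 15, 2 of 5 were called lower (Nop56 and Npm1), and 0 higher, against 4.9% of features called lower and 5.66% called higher (10.6% in all). At day 21, 5 of 5 were called lower, against 9.93% of features called lower and 8.78% called higher (18.7% in all). Between day 21 and day 4, 5 of 5 were called lower, against 3.22% of features called lower and 2.62% called higher (5.84% in all). The genes were chosen with results of these arrays known, so these shares describe them and do not test the group.

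The count of 2 at day 15 changed when single arrays were left out. It was 1 without day 15 array 1, and 0 without array 2 or without array 3. The share of all features called lower, 4.9% with all arrays, was 1.69%, 1.16% and 5.81% in these fits. The mean of Npm1 was -0.612, -0.578 and -0.358 in them. That of Nop56 was -0.329 without array 2 and -0.266 without array 3. The count of 5 at day 21 stood without each of the 12 arrays in turn. Between day 21 and day 4 the count was 3 without day 4 array 1, day 21 array 1 or day 21 array 2. Those fits called 1.52%, 1.23% and 1.36% of all features lower, against 3.22% with all arrays. By the mean over all 3 arrays, day 21 was the lowest day for every gene and day 4 the highest. Neighbouring days did not differ past the threshold: from day 4 to 8, from 8 to 15 and from 15 to 21, 0 of 5 genes passed limma's test, with 2, 0 and 3 at an unadjusted p under 0.05, against 6.98%, 9.22% and 6.31% of features. The shares of all features called after adjustment in these steps were 0%, 0.178% (0.0468% lower and 0.131% higher) and 0.00936%. The step from day 15 to 21 was -0.55 for Ebna1bp2 (95% interval -0.936 to -0.17) and -0.39 for Nop58 (-0.693 to -0.0905). All 3 day 21 arrays lay below all 3 day 15 arrays for 3 of the 5 genes, Nop56, Nop58 and Ebna1bp2, against 7.29% of features. The same held for all 5 genes between day 21 and day 4, against 12.2%, and for 4 of 5 between day 21 and day 8 (not Dkc1), against 10.9%. Day 15 lay below day 4 in this way for 4 of 5 (not Npm1), against 8.22%, and below day 8 for 0 of 5, against 7.47%. A test of any difference between days (limma's moderated F-test) called Nop56 (adjusted p = 0.00286), Nop58 (0.0206) and Ebna1bp2 (0.0288), but neither Dkc1 (0.0769) nor Npm1 (0.129). That test called 2.9% of all features, and 1 of the 5 genes without day 4 array 1, day 21 array 1 or day 21 array 2.

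**Figure D2:**
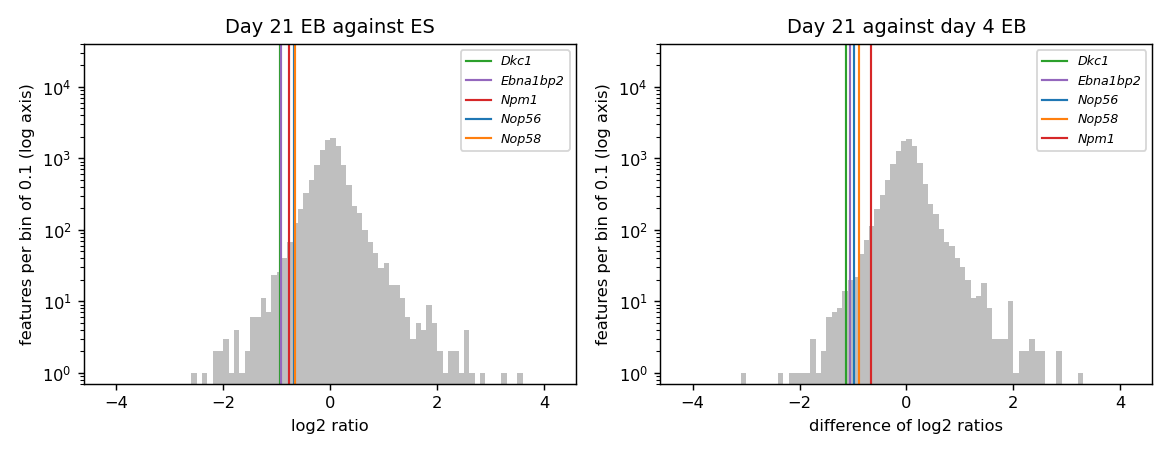
Counts of all 10689 features (log axis, bins of 0.1) by their mean log2 ratio at day 21 against ES (left) and by the difference between day 21 and day 4 (right), with a vertical line for each of the 5 genes. The lines lie in the lower tail, between -0.94 and -0.67 on the left and between -1.13 and -0.67 on the right.

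In the order of all features, 2.19% had a lower day 21 mean than Nop58 and 0.767% a lower one than Dkc1. For the difference between day 21 and day 4 these shares ran from 2.18% for Npm1 to 0.402% for Dkc1. The genes lay in the lower tail without being its end.

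Across the 12 arrays the ratios of the 5 genes ran side by side. Pearson's r between pairs ran from 0.612 (Dkc1 with Npm1) to 0.931 (Npm1 with Ebna1bp2), and Nop56 with Nop58 reached 0.912. The 12 points share the ES side of the ratio and fall into 4 days. These values therefore mix the common course over days with any deviation that the genes share on an array. At day 8 Npm1 read 0.03, -0.15 and -0.39 and Ebna1bp2 0.01, -0.10 and -0.44, in the same order. At day 21 Dkc1 read -1.43, -0.92 and -0.46 and Npm1 -0.68, -0.70 and -0.91, in the opposite order. How much each part adds was not tested. Each gene correlated with the mean of the other 4 by 0.806 (Dkc1) to 0.956 (Nop58).

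The arrays were split into 2 sets that the labels do not name, by the sign of a component. The first principal component of the 1448 features without a gene symbol, which held 35% of their variance, was negative on 7 arrays and positive on 5 (day 4 array 3, day 8 arrays 2 and 3, day 15 array 3 and day 21 array 3). The sign of a centred component always gives 2 sets, so the split does not show that batches exist. Scores ran from -0.341 to 0.459, and day 8 arrays 1 (-0.113) and 2 (0.125) lay nearest the cut at 0. Every array numbered 1 was in the larger set and every array numbered 3 in the smaller. Set and replicate number therefore largely went together. Within the larger set the mean of the 5 genes was 0.179 at day 4 (2 arrays), 0.0546 at day 8 (1 array), -0.349 at day 15 (2 arrays) and -0.812 at day 21 (2 arrays). Within the smaller set it was 0.107 (1 array), -0.307 (2 arrays), -0.499 (1 array) and -0.746 (1 array). The mean of the 5 was highest at day 4 and lowest at day 21 in both sets. Single genes departed from this: in the smaller set Dkc1 was lowest at day 8 (-0.503, against -0.464 at day 21), and in the larger set Npm1 was highest at day 8 (0.033, against -0.12 at day 4). At day 8 the sets lay on either side of 0, and in the larger set Nop58 (0.172), Dkc1 (0.123), Npm1 (0.033) and Ebna1bp2 (0.0125) were above 0. With the set as a term in the model 5 of 5 genes were still called at day 21, and 5 of 5 between day 21 and day 4.

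**Figure D3:**
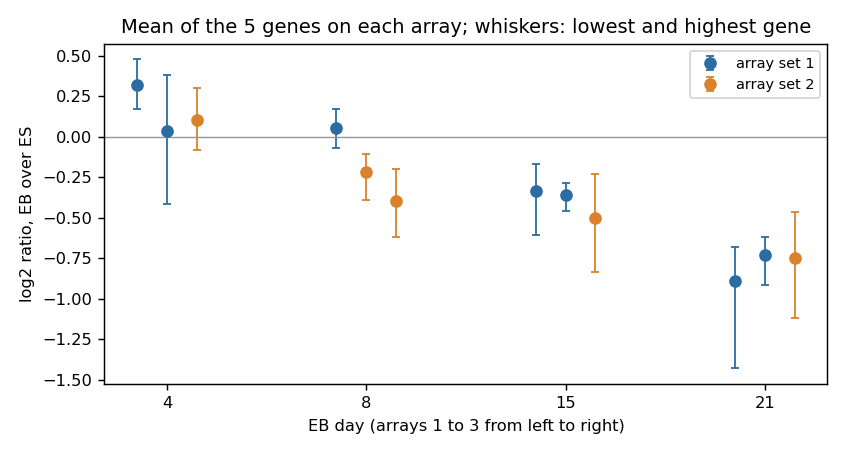
Mean log2 ratio of the 5 genes on each of the 12 arrays (vertical axis) by EB day (horizontal axis), coloured by array set, with whiskers from the lowest to the highest of the 5. The day 21 means lie between -0.89 and -0.73 in both sets, below every earlier array.

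Of other genes of ribosome assembly, more were called lower than higher at days 15 and 21. Lists of 7 parts of the pathway held 186 further genes, of which 87 were measured. Of these 87, 0 were called at day 4 and 0 at day 8, against 0% and 2.28% of all features. At day 15, 17 (19.5%) were lower and 0 higher, against 4.9% and 5.66% of all features. At day 21, 36 were lower and 2 higher. The share called lower at day 21 was 41.4%, against 9.93% of all features, and the share called higher 2.3%, against 8.78%. The median ratio was -0.305, against 0.00307 over all features. The count of 36 was 19 without day 21 array 1 and 23 without array 2. In these fits 3.97% and 4.49% of all features were called lower. Between day 21 and day 4, 24 of 87 (27.6%) were lower and 0 higher, against 3.22% and 2.62% of all features, with a median of -0.346. The count of 24 was 10 without day 4 array 1, day 21 array 1 or day 21 array 2 and 15 without day 4 array 3. In that order, these fits called 1.52%, 1.23%, 1.36% and 2.1% of all features lower.

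In the box C/D list, beside Nop56 and Nop58, 6 of 6 measured genes were lower at day 21. The median was -0.514, and by array it ran from -0.539 to -0.465. Fbl, the methylase of the particle, was 0.15, -0.25 and 0.15 at day 4 and -0.60, -0.46 and -0.48 at day 21 (mean -0.51 ± 0.07, adjusted p = 0.00169). Snu13, which binds the bend in the guide RNA, stood at -0.52 ± 0.09 at day 21 (adjusted p = 0.00318). The paired ATPases that help to assemble the particle were lower too, Ruvbl1 at -0.60 ± 0.11 (adjusted p = 0.00116) and Ruvbl2 at -0.54 ± 0.03 (adjusted p = 2.05e-04). The 8 measured genes of this list, assembly factors and Nop56 and Nop58 included, lay between -0.67 and -0.39.

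In the box H/ACA list only 3 genes beside Dkc1 were measured, and 1 of them was lower. Gar1, a core protein of the particle, stood at -0.51 ± 0.17 (adjusted p = 0.0218) at day 21. Tert, the catalytic subunit of telomerase, was at 0.00437 (adjusted p = 0.974), and Wrap53, which brings telomerase to Cajal bodies, at -0.10 (adjusted p = 0.435). Whether Dkc1 differed from them was not tested.

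Of the nucleolar phosphoproteins, 2 of 4 beside Npm1 were lower at day 21. Ncl (nucleolin), an RNA-binding protein of the nucleolus, read 0.52, -0.22 and 0.26 at day 4 and -0.81, -0.62 and -0.61 at day 21 (-0.68 ± 0.11, adjusted p = 0.00285). Its difference between day 21 and day 4 was -0.86 (adjusted p = 0.0136). Mybbp1a, a nucleolar partner of Myb, was at -0.61 ± 0.15 (adjusted p = 0.00291). Tcof1 (treacle), which serves ribosomal gene transcription, was at 0.23 (adjusted p = 0.105), and the remaining gene, Nop53, at -0.06 (adjusted p = 0.735). Mybbp1a and Nop53 are also in the large subunit list and Tcof1 in the RNA polymerase I list. Each counts in both of its lists.

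Of the large subunit assembly genes beside Ebna1bp2, 11 of 28 were lower and 0 higher at day 21, with a median of -0.316. Lyar, a nucleolar zinc finger protein, was lowest at -0.98 ± 0.15 (adjusted p = 7.80e-05). Pes1 and Wdr12, partners in the complex that matures the large subunit RNA, were at -0.81 ± 0.345 (adjusted p = 0.00768) and -0.65 ± 0.24 (adjusted p = 9.61e-04). Bop1, their partner in that complex, was not called (-0.59 ± 0.46, adjusted p = 0.109), and its day 21 arrays read -0.925, -0.776 and -0.0602. Rrs1, which works with Ebna1bp2's yeast counterpart in early assembly, was at -0.003 (adjusted p = 0.986) with arrays at -0.11, 0.06 and 0.04.

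Of the small subunit genes, 8 of 23 were lower and 1 higher at day 21, with a median of -0.264. Heatr1 (-0.67 ± 0.33, adjusted p = 0.00318) and Utp4 (-0.63 ± 0.12, adjusted p = 6.85e-04), both parts of the complex that first binds the transcript, were lower, as was Nol8 (-0.61 ± 0.33, adjusted p = 0.0217). The gene that was higher, Ddx52, encodes an RNA helicase (0.47, adjusted p = 0.0251), and it was named after its value was seen. In the RNA polymerase I list 4 of 13 were lower and 1 higher, with a median of -0.206. Its largest subunit Polr1a was at -0.44 ± 0.14 (adjusted p = 0.00877) and the subunit Polr1e at -0.36 ± 0.25 (adjusted p = 0.0157), while Taf1c, a part of the promoter selectivity factor, was higher at 0.39 ± 0.09 (adjusted p = 0.00798). Of exosome and nuclease genes, 5 of 13 were lower and 0 higher, with a median of -0.337. Rpp40, a protein of RNase P and RNase MRP, fell by 1.01 ± 0.08 (adjusted p = 8.42e-06), Dis3, a nuclease of the exosome, by 0.58 ± 0.08 (adjusted p = 2.41e-04), and Mtrex, its helicase, by 0.40 ± 0.11 (adjusted p = 0.00466).

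**Figure D4:**
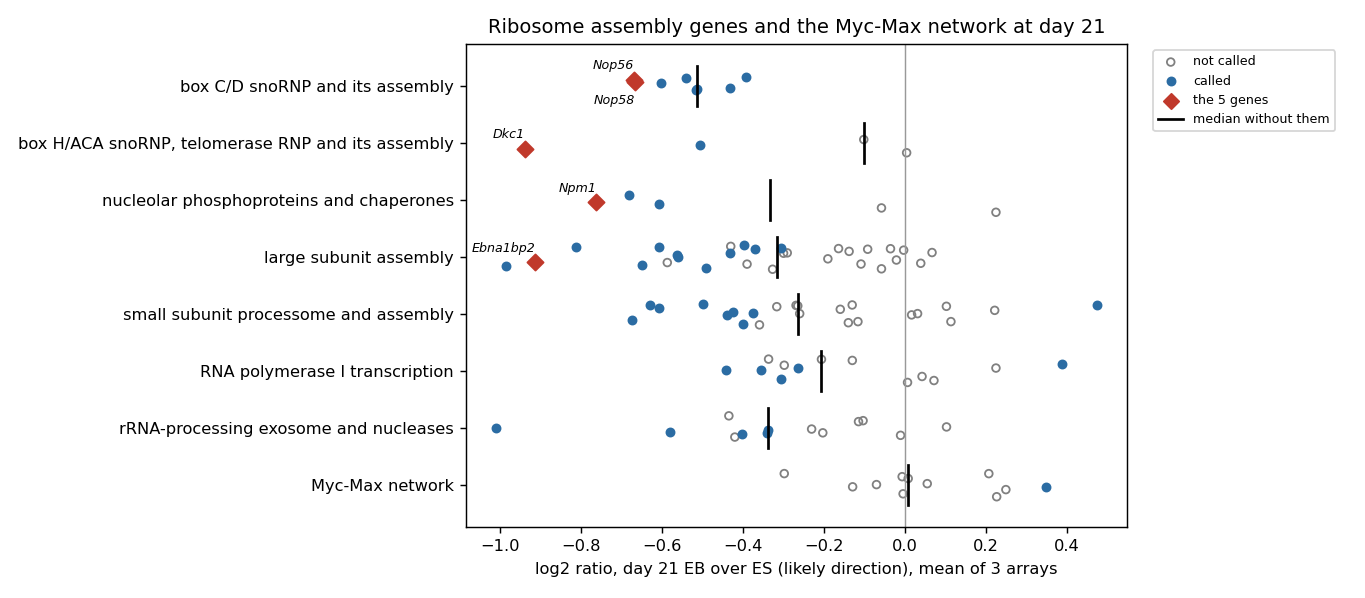
Mean log2 ratio at day 21 (horizontal axis) of each measured gene in 7 ribosome assembly lists and the Myc-Max network, with filled points for genes called by limma, open points for the rest, red diamonds for the 5 genes and black lines at each list's median without them. All 6 other box C/D genes are called, with a median of -0.514. The Myc-Max genes, which include factors that act against Myc, have a median of 0.0082.

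Genes of the Myc-Max network, which holds Myc, known to drive ribosome production, its relatives and partner, and factors that act against it, had a median of 0.0082 at day 21, against 0.00307 over all features. At day 21, of 11 measured, 0 were lower and 1 higher, against 9.93% of all features called lower and 8.78% called higher. In a list of 11 genes, such counts cannot show whether the network differs from all features. Myc read 0.78, 0.50 and 0.40 at day 4 (mean 0.56 ± 0.20, adjusted p = 0.18) and 0.06, -0.18 and 0.29 at day 21 (0.06 ± 0.23, adjusted p = 0.8). Its difference between day 21 and day 4 was -0.51 (adjusted p = 0.129). Its means at days 8 and 15 were -0.28 and 0.27 (limma, adjusted p = 0.255 and 0.205), so Myc did not fall at each later day. Mycn stood within 0.12 of 0 on average at every day, with 0.00820 at day 21 (adjusted p = 0.952). Max, the shared partner, was at -0.07 (adjusted p = 0.635). Of the rest, Mycl (0.23), Mxd1 (0.25), Mnt (0.21), Mga (-0.30), Mxd3 (-0.13), Mxd4 (-0.0067) and Mlx (-0.00437) did not pass limma's test at day 21, with adjusted p from 0.0584 to 0.984. Mxi1, which opposes Myc on Max, was higher at day 8 (0.49, adjusted p = 0.0148), day 15 (0.29, adjusted p = 0.0298) and day 21 (0.35 ± 0.08, adjusted p = 0.00816).

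Of the 9207 other genes, the 8 whose ratios followed the mean of the 5 most closely over the 12 arrays had Pearson's r of 0.961 to 0.974. They were Atp5j2 (0.974), a subunit of the mitochondrial ATP synthase, Msh6 (0.969), a DNA mismatch repair protein, Farsb (0.967), the beta chain of phenylalanyl-tRNA synthetase, Birc5 (0.966), survivin of dividing cells, Ppid (0.965), a cyclophilin, Ash2l (0.965), a subunit of histone methyltransferases, Nfu1 (0.965), which hands on iron-sulphur clusters, and Uchl3 (0.961), a ubiquitin hydrolase. This measure ignores the size and the offset of a change: at day 21 Msh6 was at -1.40 and Atp5j2 at -0.092. Of all other genes, 73 had an r above 0.9.

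Markers of the cells in the culture also differed from ES at day 21, when 9.93% of all features were called lower and 8.78% higher. Of 20 measured markers of dividing cells, 14 were lower and 0 higher at day 21, with a median of -0.425 and array medians between -0.474 and -0.332. The marker Mki67 stood at -0.167 (adjusted p = 0.181) and Top2a at -0.88 (adjusted p = 1.57e-04). Of 15 ES cell markers, 13 were lower and 0 higher at day 21, with a median of -1.59 and array medians between -1.82 and -1.1. Of 18 visceral endoderm and liver markers 13 were higher (median 1.01), of 15 mesenchyme markers 12 were higher and 1 lower (median 1.02), and of 11 heart muscle markers 6 were higher (median 0.524). Of 10 neural markers 0 were higher and 1 lower (median 0.0794), and of 8 macrophage and blood markers 3 were higher (median 0.285). At day 4, 0 genes of any of these lists were called, but neither was any other of the 10689 features, so this does not describe the markers. The part of the cell mixture or of cell division in the ratios of the 5 genes was not tested.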

How the data were processed

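Log ratios came from 12 arrays with 2 channels. Per the labels, the authors deposited normalized log ratios, read here as log2 by convention, since the base is not stated. The scanner, background correction, spot filter and normalization method are not given in the sources used here, so signal over background is unknown. The table held 11520 features with 0 missing values, and column medians lay near 0. Having 3 arrays a day limits precision.

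Probe names came from the platform table at GEO, parts of which may be outdated: 10043 had 1 symbol, 29 several and 1448 none, and 10025 matched RefSeq's gene table of GRCm38.p6 by Entrez ID, with 0 symbols changed. Averaging over a gene's probes left 10689 features. A single limma 3.58.1 model (lmFit and eBayes, R 4.3.3) fitted a mean per day to the 12 arrays (residual degrees of freedom 8, prior 4.35). It set each day against 0 and days against each other, two-sided, with Benjamini-Hochberg adjustment over all features within a comparison and a threshold of 0.05. The ES channel is 1 control sample, so tests against ES leave out its spread. With no dye swap, a probe's dye effect stays in each ratio against ES.

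The 5 genes and the lists were chosen with earlier results of these data known. Genes named beside the 5 were up to 3 called genes per list with the largest day 21 values, partners in the same particle, all Myc-Max genes, the 8 genes of closest course and up to 2 markers per list. Tcof1, Nop53 and Ddx52 were named outside this rule. On simulated arrays with 100 of 10689 features shifted by each size, 95% of shifts of 1 were recovered for day 21 against ES and 83% for day 21 against day 4. For shifts of 0.5 the shares were 65% and 26%. Features without a shift gave 13 and 6 calls. The simulated noise was independent between features, and far fewer features were shifted than were called at day 21. The shares recovered may therefore differ in the real data. Alternatives were quantile normalization, scaling, centring, array weights, a robust prior, single probes, fits of the compared days alone, a replicate block, each array left out and, added after seeing the data, the array set. Plots were drawn with matplotlib 3.10.9.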

Additional observations from a re-analysis of the deposited data

Results flagged for a closer look

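The effect against ES differed between day 4 and day 21 for all 5 genes, by a direct test of the difference (limma). Day 21 less day 4 was -0.99 for Nop56, -0.89 for Nop58, -1.13 for Dkc1, -0.67 for Npm1 and -1.05 for Ebna1bp2, and the 3 day 21 arrays lay below the 3 day 4 arrays for each. Of all features, 3.22% were called lower and 2.62% higher in this comparison. For 12.2% of features all day 21 arrays lay below all day 4 arrays. The Npm1 call was lost under quantile normalization (adjusted p = 0.099), scaling (0.16), a fit of those days (0.0686) and in the larger array set (0.13). With single arrays left out, adjusted p reached 0.174 for Npm1 and 0.0673 for Dkc1.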

How the results depend on the processing

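Under 10 alternatives and with each of 12 arrays left out, 5 of 5 genes stayed called lower at day 21, with adjusted p between 6.23e-05 and 0.0341. With the replicate block 5 genes were called at day 21, 2 at day 15 and 5 between day 21 and day 4, and no call of the 5 genes changed. The main model did not pair arrays by replicate number. Deviations from the day means correlated by over 0.1 in 8 of 18 same-numbered pairs (range -0.14 to 0.389). Differently numbered pairs were not set beside them, so these values cannot decide whether the numbers pair arrays. At day 4, quantile normalization called 1 gene (Nop56, 0.44). At day 15 the count of 2 became 5 with array weights, 1 in a fit of that day alone and 1 in the larger array set (neither of them Nop56 or Npm1), and ran from 0 to 3 with an array left out. From day 4 to 8 array weights called 1. Between day 21 and day 4 the count ran from 3 to 5 with an array left out, and was 4 after quantile normalization, after scaling, in a fit of those days and in the larger set, each of which lost Npm1. Any difference between days called 5 genes with array weights, 1 after scaling, 1 after quantile normalization, and 1 to 3 with an array left out. The other assembly genes called lower numbered 19 to 40 at day 21 and 10 to 27 between day 21 and day 4 with an array left out. For the latter the count of 24 was 14 after scaling, 39 with array weights and 14 in a fit of those days. Signs turned for Npm1 at day 4 with array weights (0.0443), in the larger set for Nop58 (0.172), Dkc1 (0.123), Npm1 (0.033) and Ebna1bp2 (0.0125) at day 8 and for Npm1 from day 4 to 8 (0.153). With an array left out Npm1 ran from -0.222 to 0.0699 at day 4 and from -0.242 to 0.0506 from day 4 to 8. Of all features, 1999 were called at day 21, 1068 after quantile normalization, 971 after scaling and 753 to 2221 with an array left out. At day 15 it was 1129, 259 in a fit of that day, 1742 in the larger set, 3251 with array weights and 235 to 1554. At day 8 it was 244, 1 in a fit of that day, 10 in the larger set, 454 with the set term, 518 after quantile normalization, 581 after scaling, 999 with array weights and 6 to 380. At day 4 it was 0, 51 after scaling, 87 with the set term, 94 with array weights, 137 after quantile normalization and 0 to 2. Between day 21 and day 4 it was 624, 308 after scaling, 374 after quantile normalization, 395 in a fit of those days, 1343 with array weights and 223 to 773, and the called features split into 344 lower and 280 higher, turning to 332 and 497 in the larger set, 178 and 217 in a fit of those days and 225 and 241 without day 4 array 3. Without day 4 array 2 it was 358 and 187. From day 8 to 15 it was 19, 5 in a fit of those days, 159 in the larger set, 582 with array weights and 4 to 126. From day 4 to 8 it was 0, 2 after quantile normalization and 78 with array weights. The cause of these shifts was not tested.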
